A study of Arabidopsis thaliana with 24 samples.

Results

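The salt response of leaves of Col(gl), the glabrous Columbia wild type of this series, was taken as the difference between 2 arrays of plants given 100 mM NaCl and 2 arrays of plants given none, 4 of the 24 arrays in all. The arrays were Affymetrix ATH1 arrays, a short-oligonucleotide design for Arabidopsis thaliana, and 22746 probe sets that are not controls were compared. Plants of all groups were grown at 10 h of light and harvested at 20 days after sowing, as developed but not senescent leaves pooled from at least 15 seedlings. NaCl was given from day 14 in diluted Hoagland solution, watered from below and sprayed from above, and raised by 50 mM every 2 days, so that the salt groups had 6 days of treatment. The other groups used here, each with 2 arrays at either salt level, were the wild types Col (background Col-0 in the labels) and Ws and the SOS1 transgenic line in the Col(gl) background. The SOS1 line is named by its transgene alone, and its promoter and the number of independent lines are unknown here. A pair of further transgenic lines, CBF3 (characteristics: Ws) and M6PR (characteristics: Col-0), carry sample descriptions that name other backgrounds and enter only the estimate of the spread and a few side values. Replicates are called biological in the design text and came from replicate pots, so every p-value below rests on 2 arrays a group. Where all 24 arrays were fitted, the spread was pooled over 12 groups.

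Salt around roots brings osmotic stress and an excess of sodium. Leaves commonly answer the first through abscisic acid, the hormone that induces protective hydrophilic proteins, and the second through ion transporters such as the plasma membrane sodium/proton antiporter SOS1. Chloroplast genes, which encode the cores of the photosystems, of ATP synthase and of the plastid's own ribosomes and RNA polymerase, are mostly transcribed in shared units, and their transcripts are measured on these arrays beside those of the nuclear genes.

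The 4 arrays had the properties of leaf RNA. Medians of 11 nuclear photosynthesis genes lay at log2 signals of 12.89 to 13.02, against 12.80 to 13.29 in the other 20 arrays, while medians of 4 root genes (4.02 to 4.44) and of 2 flower, pollen and seed genes (3.85 to 4.28) stayed low. GLABRA1, whose loss usually makes such plants hairless, was not among the probe sets with 1 named gene. The 3 trichome genes measured did not all differ one way from Col. TRIPTYCHON (TRY), a repressor of trichome initiation, had signals of 4.82 to 5.09 in the 4 arrays and 5.84 to 8.09 in the 4 Col arrays, but overlapped with CBF3 (4.85 to 5.58). GIS, a zinc finger factor that promotes trichome initiation, was also lower than in Col (5.19 to 5.79 against 5.94 to 7.98), and SIM, a cell cycle inhibitor of developing trichomes, was higher (7.35 to 7.53 against 6.18 to 6.68). The SOS1 arrays, labelled with the Col(gl) background, did not overlap with Col(gl) in any of the 3 genes (TRY 5.53 to 6.37, GIS 6.34 to 8.15, SIM 5.36 to 6.76). These genes do not mark the glabrous label, which was therefore not checked, and none of the 3 passed for salt. The SD of the difference between replicate arrays was 0.170 without and 0.188 with salt, against 0.183 to 0.625 in the other 10 groups.

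In all, 2 fits of limma were made, because the groups differ so much in their spread. A fit of all 24 arrays, which shares 1 estimate of the spread among 12 groups, called 30 probe sets at a Benjamini-Hochberg adjusted p under 0.05, which is 0.132% of those tested, 17 of them higher (0.0747%) and 13 lower (0.0572%) with salt. A fit of the 4 Col(gl) arrays alone called 2011 (8.84%), 1176 higher (5.17%) and 835 lower (3.67%), including all 30 of the first. The split between rises and falls depended on the scaling: with each array centred on its own median, the 4-array fit called 732 higher and 1406 lower, and the median of all log2 fold changes moved from -0.02 to -0.10. The calls were mostly small: 193 of the 2011 were at least 2-fold, 119 up and 74 down. Leaving out 1 array, the 24-array fit called 0 probe sets without either 100 mM array or without replicate 1 at 0 mM and 5 without replicate 2 at 0 mM, with residual spread still taken from the other groups. The 4-array fit called 1183 and 1800 without replicate 1 or 2 at 0 mM and 532 and 880 without replicate 1 or 2 at 100 mM. Of the 2011, 441 were called whichever array was left out, among them 190 of the 193 that were at least 2-fold.

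**Figure D1:**
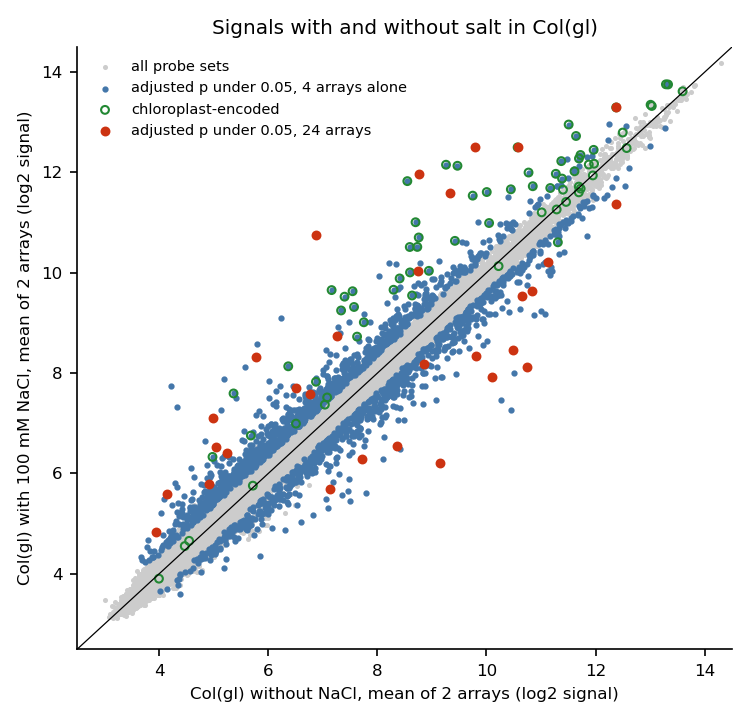
Mean log2 signal of each of 22746 probe sets in Col(gl) without NaCl (x axis) and with 100 mM NaCl (y axis), 2 arrays each. Blue points passed in the 4-array fit (2011), red points in the 24-array fit (30), and green rings are the 69 chloroplast-encoded probe sets, most of which lie above the diagonal.

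The 13 calls of the 24-array fit with 1 named gene were 7 rises and 6 falls. The other 17 have no single gene in the annotation used. AT5G05250 had signals of 6.03 and 5.54 without salt and 8.26 and 8.39 with it, a rise of 2.54 (SE 0.366, adjusted p = 0.00821), or 5.82-fold. BHLH101, a basic helix-loop-helix factor of the iron deficiency response, went from 3.98 and 3.91 to 4.95 and 4.74, a rise of 0.90 (SE 0.158, adjusted p = 0.0374). Its probe set is among the dimmest 40% by mean signal over the series, was left out by the filter on dim probe sets and was not shown to be above background. IQD22, of a family of calmodulin-binding proteins, went from 6.33 and 6.70 to 7.72 and 7.69, a rise of 1.19 (SE 0.172, adjusted p = 0.00821). In each of these 3 genes both salt arrays lay above both unsalted arrays, as the rule for naming the largest rises required. The receptor-like kinase gene AT4G18250 (0.89), also among the dimmest 40%, and the resistance-gene homologue AT5G45060 (0.82) also rose, as did the chloroplast genes rps4 and psaB described below.

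Falls in the 24-array fit were led by AT2G36885, which went from 9.91 and 9.69 to 8.26 and 8.43, a change of -1.45 (SE 0.178, adjusted p = 0.00282). SIR, the sulfite reductase that makes sulfide for cysteine synthesis, went from 11.15 and 11.10 to 10.16 and 10.26, a change of -0.92 (SE 0.125, adjusted p = 0.00725). SDH2-2, an iron-sulfur subunit of succinate dehydrogenase in mitochondria, went from 8.85 and 8.87 to 8.13 and 8.23 and fell by 0.68 (SE 0.115, adjusted p = 0.0303). The unsalted arrays were above the salt arrays in all 3 genes, as the rule for naming the largest falls required. AT1G68650 (-1.43), the defensin-like gene AT3G05730 (-1.19) and AT5G51010 (-1.12) fell as well. All 13 kept their direction when any 1 of the 4 arrays was left out, but each lost its call in at least 3 of these 4 settings (adjusted p of 0.0551 to 0.693 where lost). With the replicate number as a block, 4 of the 13 were still called.

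Most genes of the chloroplast genome rose in the 4-array fit. Of 69 chloroplast-encoded probe sets 47 rose, 1 fell (rpl36, a ribosomal protein gene, -0.70) and 21 did not pass. Over all probe sets 5.17% rose and 3.67% fell. The median log2 fold change of the 69 was 0.88, against -0.02 over all probe sets. Among probe sets with 1 gene that rose at least 2-fold, 30 of 59 (50.8%) were chloroplast-encoded, as were 69 of all 13513 with 1 gene. In the 24-array fit 2 of the 69 passed, psaB and rps4, where 0.132% of all probe sets did. The count of rises was 41 and 42 without replicate 1 or 2 at 0 mM and 38 and 39 without replicate 1 or 2 at 100 mM, and 42 with the arrays centred on their medians.

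By function, the 6 genes of ATP synthase, the complex that makes ATP from the proton gradient, all rose, with a median of 1.84. atpH, its membrane ring subunit, had signals of 8.70 and 8.40 without salt and 11.88 and 11.77 with it, a rise of 3.28 (SE 0.120, adjusted p = 3.55e-05) in the 4-array fit. atpF, a stator subunit, went from 9.32 and 9.19 to 12.11 and 12.20, a rise of 2.9 (SE 0.0968, adjusted p = 3.55e-05). The salt arrays were above the unsalted ones in both genes, by far more than replicates differed. In the 24-array fit neither passed (adjusted p = 0.463 and 0.352).

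Of 5 photosystem I genes 4 rose. psaA, a reaction centre protein, went from 9.5 and 9.43 to 12.12 and 12.14, a rise of 2.66 (SE 0.0892, adjusted p = 3.55e-05), and psaB, its partner, from 12.33 and 12.42 to 13.27 and 13.32, a rise of 0.92 (24-array fit, SE 0.164, adjusted p = 0.0440). Photosystem II rose in 8 of 15 genes, the NDH complex of cyclic electron flow in 7 of 10, cytochrome b6f in 3 of 6 and the RNA polymerase in 3 of 4. Ribosomal protein genes rose in 8 of 15, with rps4 moving from 10.64 and 10.50 to 12.43 and 12.57 (1.93, 24-array fit, SE 0.350, adjusted p = 0.0457). All 8 remaining genes rose, among them rbcL, the large subunit of the carbon-fixing enzyme Rubisco, from 8.82 and 8.70 to 10.53 and 10.88, and accD, a subunit of acetyl-CoA carboxylase, from 7.05 and 7.27 to 9.62 and 9.69. The 2 rises were 1.95 (adjusted p = 0.000325) and 2.49 (adjusted p = 5.71e-05) in the 4-array fit. In both, the salt arrays were above the unsalted ones, as the rule for naming the largest rises required.

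Several runs of neighbouring genes on the chloroplast genome rose throughout. Of the 69 measured genes 47 rose, so runs of neighbours arise without any grouping. Whether the runs follow shared transcription units was not tested. In the order of protein-coding genes in the RefSeq annotation, the 10 genes from psbI to petN, which include atpA, atpF, atpH, atpI, rps2, rpoC2, rpoC1 and rpoB, all rose, by 0.41 to 3.28. A further run of 6, from psaB through psaA, ycf3, rps4 and ndhJ to ndhK, rose by 0.92 to 2.66, and 8 from atpE through rbcL and accD to petA by 0.43 to 2.49. Directly after petA, the 4 photosystem II genes psbJ, psbL, psbF and psbE did not pass and had changes of -0.09 to -0.05. ndhC, between ndhK (2.13) and atpE (0.47), was at -0.05. Transcripts that overlap or extend past a gene's end cannot be separated by these probe sets, and genes without a probe set of their own interrupt the order.

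**Figure D2:**
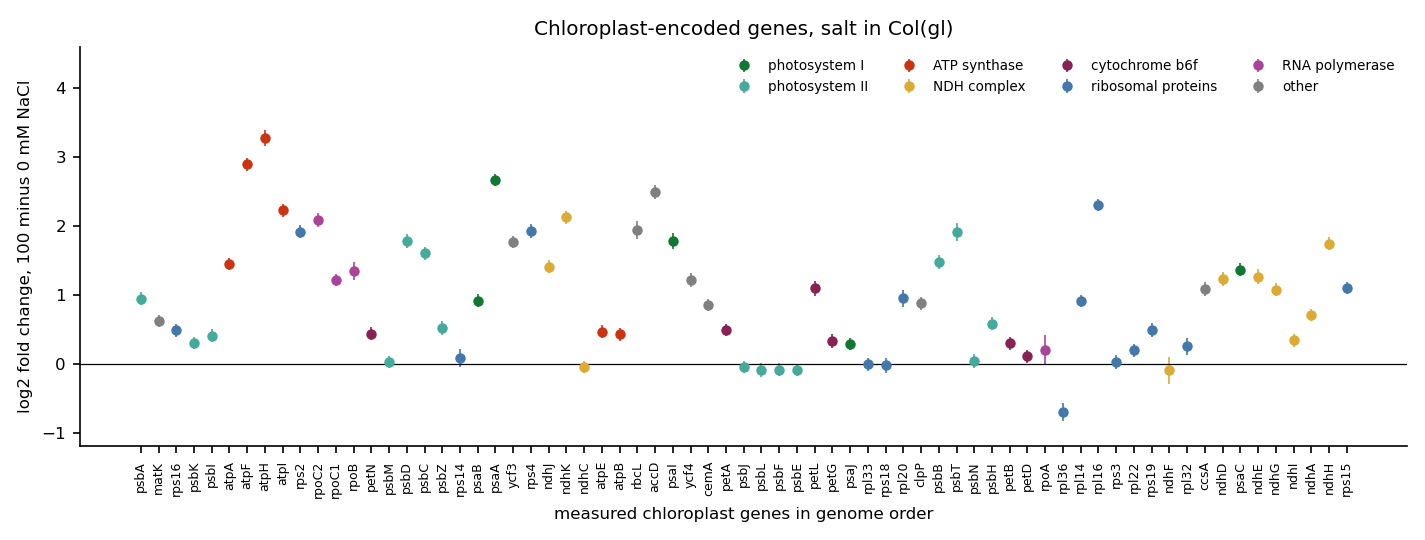
Log2 fold change (100 mM minus 0 mM NaCl) of the 69 measured chloroplast genes in Col(gl), placed in the order of the genes on the genome and coloured by function; bars are SE of the 4-array fit. The highest points are atpF and atpH, and psbJ to psbE lie between -0.09 and -0.05.

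Set against the other unsalted arrays, the chloroplast signal was low in unsalted Col(gl). The median of the 69 probe sets was 10.12 and 10.04 without salt and 11.42 and 11.41 with it. In the other 10 unsalted arrays of the series it ran from 11.05 to 11.60, and in the other 10 salt arrays from 8.36 to 11.30, where the 2 lowest, Ws_100mM replicate 1 and Col_100mM replicate 1, also had the lowest signals of dap, a bacterial RNA added as a spike-in. Beside these, 25S ribosomal RNA signals in Col(gl) were 8.73 and 8.31 without and 9.68 and 9.58 with salt (other arrays 4.52 to 10.36), and dap was 10.14 and 10.06 against 9.37 and 9.24 (other unsalted arrays 8.61 to 9.70). The 3' minus 5' difference of actin, a measure of RNA integrity, was 2.86 and 2.63 against 2.35 and 2.74, and overlapped. It was 2.15 to 2.82 in the other unsalted arrays. The same difference for GAPDH was 0.947 to 0.960 without and 0.869 to 0.939 with salt, without overlap, and 0.483 to 0.797 in the other unsalted arrays. Medians of 23 mitochondrial probe sets, a family added after the data were seen, were 4.67 and 4.49 against 4.82 and 4.77, and 4 of the 23 rose, where 5.17% of all probe sets did. That count was 2 without replicate 1 at 100 mM, and 3 rose and 2 fell without replicate 2 at 100 mM. The part of the rRNA, spike-in, RNA integrity and mitochondrial signals in the chloroplast rise was not tested. Ws_100mM replicate 1 and Col_100mM replicate 1, lowest in chloroplast median, were also lowest in 25S ribosomal RNA (4.98 and 4.52). Their 3' minus 5' differences were the highest of the series, for actin (3.84 in both) and for GAPDH (1.27 and 0.961). In bulk leaves, fewer chloroplasts, less RNA per chloroplast and a difference in RNA quality between arrays cannot be told apart.

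**Figure D3:**
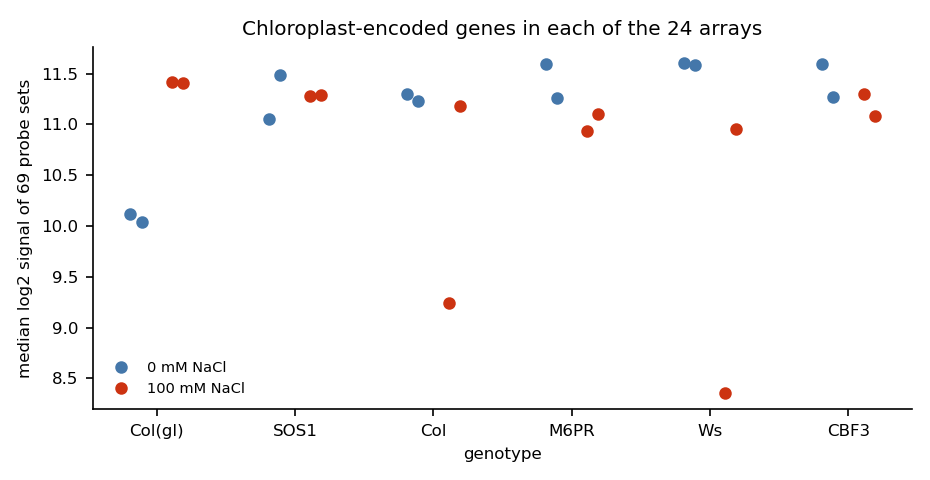
Median log2 signal of 69 chloroplast-encoded probe sets in each of the 24 arrays, by genotype; blue is without NaCl, red with 100 mM NaCl, and every point is 1 array. The 2 unsalted Col(gl) arrays (10.12 and 10.04) lie below the other unsalted arrays, and 1 Ws and 1 Col salt array lie lowest.

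Beside the salt responses of other genotypes, the change of the chloroplast genes in Col(gl) was higher by a median of 1.22 from Col, 2.12 from Ws and 0.80 from SOS1, with 67, 68 and 56 of 69 above 0. By the 24-array test of the difference, 1 of the 69 passed against Col, 4 against Ws and 0 against SOS1, where 3.25%, 0.550% and 0% of all probe sets passed. Without the 2 low-dap arrays the median differences were 0.47 from Col and 1.33 from Ws, with 5 and 17 of the 69 called, where 1.01% and 0.422% of all probe sets were. SOS1 is labelled with the same background, and its median salt change for these genes was 0.06. Nuclear photosynthesis genes, which encode partners of the chloroplast proteins, did not rise. All 11 had log2 fold changes below 0, with a median of -0.20, where 12207 of all 22746 probe sets were below 0. LHCB4.3, an antenna protein of photosystem II, fell by 0.56 (adjusted p = 0.0142, 4-array fit). That call was lost without either salt array, at adjusted p of up to 0.0797, and 2 of the 11 fell with the arrays centred on their medians.

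Outside the chloroplast genome, 6 genes of the 15 largest rises were nuclear. AT3G02480, an abscisic acid-responsive hydrophilic protein gene, had signals of 4.3 and 4.36 without salt and 7.03 and 7.63 with it, a rise of 3.0 (SE 0.181, adjusted p = 0.000227, 4-array fit). XTH19, a xyloglucan endotransglucosylase that remodels cell walls, went from 5.87 and 5.71 to 8.50 and 8.67 (2.80, SE 0.105, adjusted p = 3.72e-05). AT2G37870, a lipid transfer protein-like gene, went from 5.07 and 5.29 to 8.02 and 7.75 (2.70, SE 0.126, adjusted p = 7.86e-05). Signals of both groups were far apart in the 3 genes. AT1G47400, which encodes the iron deficiency peptide IRON MAN 1, rose by 2.55 and the alcohol dehydrogenase-like gene AT1G09500 by 2.09. AT5G05250 completes the 6. Except AT5G05250, none of them passed in the 24-array fit, where their adjusted p ran from 0.0738 to 0.977.

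The 15 largest falls were all nuclear. PDF1.2 and PDF1.2b, closely related defensins induced by jasmonate and ethylene that these probe sets may not separate, were the largest. PDF1.2 had signals of 10.50 and 10.42 without salt and 7.11 and 7.44 with it, a change of -3.18 (SE 0.125, adjusted p = 4.18e-05, 4-array fit), and PDF1.2b went from 10.27 and 10.26 to 7.38 and 7.54 (-2.81, adjusted p = 3.55e-05). AT1G04770, which is SULFUR DEFICIENCY INDUCED 2, a repressor of glucosinolate synthesis, fell from 7.87 and 7.72 to 5.55 and 5.67 (-2.19, adjusted p = 7.62e-05). In all 3 the groups did not overlap, as the rule for naming the largest falls required. AT5G59400 (-1.78), AT1G13650 (-1.56), AT3G23170 (-1.51) and AT4G24380 (-1.46) came next. They were followed by AT2G36885 and AT1G68650, described above, then AT2G41640, a family 61 glycosyltransferase gene (-1.41), AT3G43670, a copper amine oxidase gene (-1.35), AT1G76600 (-1.33), AT2G27080 (-1.31), AT4G37240 (-1.26) and AT1G57590 (-1.25). Of these 15, 2 were called in the 24-array fit. The other 13 had adjusted p values there from 0.0565 to 0.974.

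**Figure D4:**
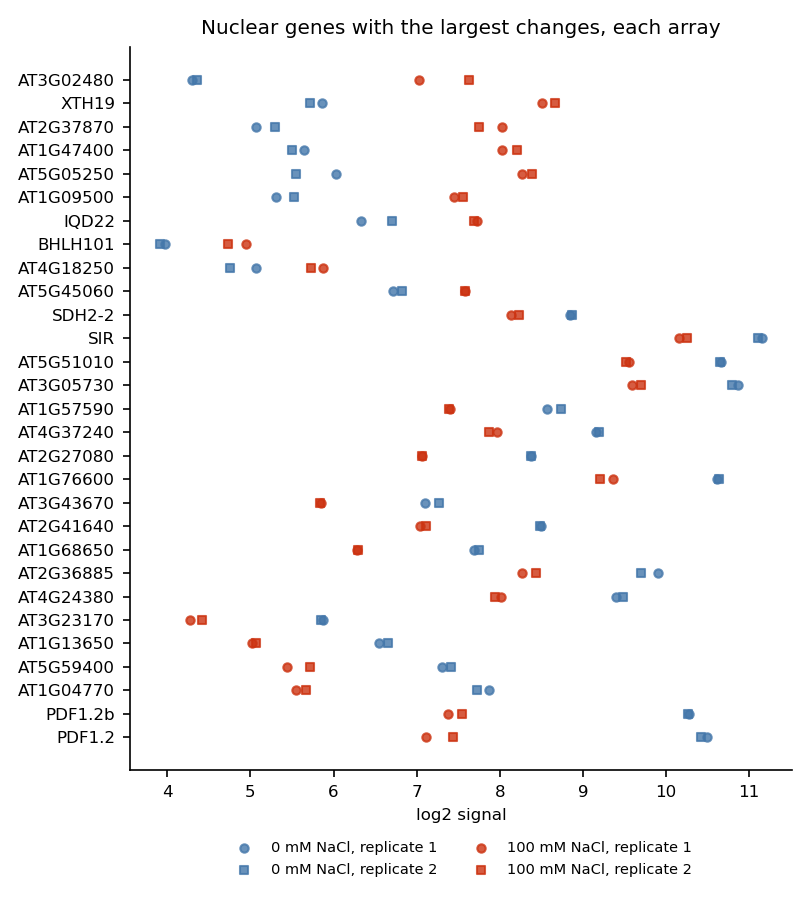
Log2 signal of each of the 4 Col(gl) arrays for the nuclear genes named as the largest rises or falls in either fit, sorted by fold change; blue is 0 mM and red 100 mM NaCl, circles replicate 1 and squares replicate 2. Genes were named as largest changes only where the groups do not overlap, so no gene shown overlaps.

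The lists of pathway genes were short on these arrays, because only probe sets with 1 named gene could be matched, and their counts are read against 8.84% of all probe sets called in the 4-array fit (5.17% higher, 3.67% lower). The named list members passed in that fit and, apart from SIR and BHLH101, not in the 24-array fit.

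Genes of abscisic acid and cold responses were sparsely measured, with a probe set for 2 of 54 entries of the abscisic acid list and 6 of 31 of the cold list. Of the 2 abscisic acid genes, AT3G02480 rose, as described above, and LEA4-5, a late embryogenesis abundant protein, had a change of 0.09 that did not pass. The cold list holds the CBF regulon, the targets of cold-responsive transcription factors, together with other cold-induced genes, and 1 of its 5 genes measured rose. That gene was COR27, which rose by 0.51 (adjusted p = 0.0216). Its call was lost without either salt array and without replicate 1 at 0 mM (adjusted p of up to 0.0811). The dehydrin genes COR47 and LTI30 and the chloroplast-protecting protein COR15A had changes of -0.03, 0.32 and 0.11 that did not pass. LTI30 was at 8.42 without and 8.73 with salt in Col(gl), and went from 5.85 to 10.60 in Col, a difference between responses of -4.43 (24-array fit, adjusted p = 0.0027). That difference held without the 2 low-dap arrays (adjusted p = 0.00628) and without any 1 of the 8 arrays (adjusted p of up to 0.0210).

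Of 9 rapid stress and touch genes, which calcium and wounding signals switch on, 3 fell. All 9 had log2 fold changes below 0, with a median of -0.26, where 12207 of all 22746 probe sets were below 0. CML38, a calmodulin-like protein, went from 9.58 and 9.60 to 8.54 and 8.73 (-0.95, adjusted p = 0.00272), and STZ, a zinc finger repressor, from 9.52 and 9.59 to 8.95 and 8.75 (-0.71, adjusted p = 0.0100). Neither pair of groups overlapped. WRKY22, a factor of the immune response, fell by 0.71, a call lost without 3 of the 4 arrays (adjusted p of up to 0.160). STZ rose by 4.90 and WRKY22 by 2.77 with salt in Col, and the responses differed in the 24-array fit (adjusted p = 0.0046 and 0.0022). Without the 2 low-dap arrays these values were 0.0152 and 0.0147. Unsalted STZ stood at 9.55 in Col(gl) and 5.79 in Col, and salted STZ at 8.85 and 10.69.

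Of 19 cell wall genes 2 rose and 5 fell, with a median of -0.29, and 2 rose and 10 fell with the arrays centred on their medians. Without replicate 1 at 100 mM 3 fell. CSLA01, a glucomannan synthase, rose from 7.19 and 7.30 to 8.41 and 8.33 (1.12, adjusted p = 0.000889), beside XTH19. EXO, a cell wall protein induced by brassinosteroids, fell from 11.85 and 11.84 to 10.74 and 10.71 (-1.12, adjusted p = 0.000678), EXLA2, an expansin-like protein, from 8.06 and 8.06 to 6.98 and 7.08 (-1.03, adjusted p = 0.00118), and the expansin EXPB1 by 0.79 (adjusted p = 0.00489). In these 3 the unsalted arrays were higher without overlap, and the calls held without any 1 array. XTH19's neighbours in sequence, XTH18 and XTH20, had changes of -0.40 and -0.04 that did not pass. Of the 18 expansins measured, EXPA9 alone rose (0.78), and 3 fell, or 5 with the arrays centred.

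Metal and sulfur genes included BHLH101 and SIR, which passed in both fits. Among 4 iron and zinc genes, BHLH101 rose and so did PYE, a regulator of iron homeostasis, by 0.49 (adjusted p = 0.0454), a call lost without replicate 1 at either salt level (adjusted p of up to 0.169) and under either other scaling. Of 4 sulfur genes, SIR and APS3, an ATP sulfurylase, fell, APS3 by 0.62 (adjusted p = 0.00994, lost without replicate 1 at 100 mM at 0.0651), and BGLU28, a beta-glucosidase whose probe set is among the dimmest 40%, rose by 0.46 (adjusted p = 0.0243), a call lost whichever array was left out. Of 5 glucosinolate genes, whose products are sulfur-rich defence compounds, 2 fell: UGT74B1, the glucosyltransferase of their synthesis, from 9.49 and 9.49 to 8.42 and 8.47 (-1.04, adjusted p = 0.000924), and BCAT4, of methionine chain elongation, by 0.45 (lost whichever array was left out, at adjusted p of up to 0.0970). UGT74B1 held without any 1 array.

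The counts for hormone and sugar genes depended on the scaling and on single arrays. In the gibberellin, brassinosteroid and cytokinin list 3 of 4 rose, the gibberellin receptors GID1B (0.56) and GID1A (0.45) and the response regulator RR16 (0.55), and all 3 calls were lost without at least 2 of the 4 arrays (adjusted p of up to 0.164). With quantile normalization again or with centred arrays, 1 of the 4 rose. Of 17 sugar transporters 3 rose, SWEET4 (0.78), SWEET13 (0.41) and SWEET11 (0.40), and SWEET2 fell by 0.50. Each of these 4 calls was lost without 1 or more arrays, at adjusted p of up to 0.154, and SWEET11 and SWEET13 without any of them. In this family 2 rose and 2 fell with quantile normalization again, 1 rose and 4 fell with centred arrays, and 0 passed without replicate 1 at 100 mM. Among 47 UDP-glycosyltransferases 6 rose and 1 fell. With centred arrays 5 rose and 4 fell, without replicate 2 at 0 mM 5 rose and 6 fell, and without replicate 1 or 2 at 100 mM 1 and 3 rose and 1 fell in each case. UGT71B6, which glucosylates abscisic acid, rose from 4.98 and 4.68 to 5.94 and 5.58 (0.93, adjusted p = 0.0139, and 0.0769 without replicate 1 at 100 mM), with a probe set among the dimmest 40%. UGT87A2 rose by 0.82 (adjusted p = 0.00276). Of 7 antioxidant genes 2 fell, SAPX, the stromal ascorbate peroxidase, by 0.60 and VTC4, an enzyme of ascorbate synthesis, by 0.55, and both calls were lost without either salt array, while 4 of the 7 fell with centred arrays. Neither proline metabolism (1 gene) nor sodium and potassium transport (2 genes) had a call, and root and flower markers had none.

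The salt response of Col(gl) was then compared with those of the other genotypes, which share no array with it. Of all probe sets, 740 (3.25%) differed from Col, 387 with the Col(gl) change above (1.7%) and 353 below (1.55%). In 704 of the 740 the change in Col was the larger, and in 577 the 2 changes had opposite signs. The median size of the changes was 0.26 in Col(gl) and 1.39 in Col. The 740 were picked by a difference between these same changes, which favours opposite signs and a large change in 1 genotype. These counts and sizes therefore do not measure how the 2 responses compare over all probe sets. The count of 740 was 229 without the 2 low-dap arrays, which also had the highest 3' minus 5' differences of actin and GAPDH. Leaving out 1 array at a time, it was 146 without Col_100mM replicate 1, 112 and 122 without Col_0mM replicate 1 or 2, 95 and 124 without Colgl_0mM replicate 1 or 2, and 97 and 129 without Colgl_100mM replicate 1 or 2. Across all probe sets, the correlation of log2 fold changes with those of Col(gl) was 0.14 for Col, 0.07 for Ws and 0.40 for SOS1. It was 0.22 for CBF3, above both other wild types, and -0.02 for M6PR. These values are a description over 22746 probe sets that share normalization and are not independent.

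Among the named genes, the rises and the falls went different ways in Col. All 6 nuclear rises also rose in Col in the 24-array fit, where 10.1% of all probe sets rose and 10.8% fell, and none of their differences from Col passed. Of the 15 named falls, 8 also fell in Col. The other 7, AT1G04770, AT3G23170, AT4G24380, AT2G41640, AT1G76600, AT2G27080 and AT4G37240, rose there by 1.61 to 4.2, and each of the 7 differences passed, at adjusted p of 0.0026 to 0.0164. Over all probe sets, 3.25% of differences were called. These 7 were picked by a fall in Col(gl) and a rise in Col. The test uses those same values, so the 2 shares cannot be set against each other. Of these 7, 3 were called without Col_0mM replicate 1, 4 without the 2 low-dap arrays or any other single array except Col_100mM replicate 2, and 7 without that one (adjusted p of up to 0.0784). In SOS1 all 7 had changes below 0, from -2.03 to -0.74. Without salt, 6 of the 7 genes had a higher mean signal in Col(gl) than in Col, by up to 3.76 on the log2 scale. Over all probe sets 43.4% did. The unsalted arrays of both genotypes also entered the choice of the 7, so these shares are not comparable.

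The 74 probe sets that fell at least 2-fold in the 4-array fit were below 0 in 70 cases in SOS1, 35 in Col and 28 in Ws, where 43.1%, 62.1% and 55.1% of all probe sets were. The 119 that rose at least 2-fold were above 0 in 93 cases in SOS1, 73 in Col and 56 in Ws, where 56.9%, 37.9% and 44.9% of all were. In CBF3 59 of the 74 were below 0 and 69 of the 119 above, where 49.5% and 50.5% of all were. For M6PR these counts were 36 and 49, where 47.2% and 52.8% of all were. Differences from Ws were called for 125 probe sets (0.550%), 54 above (0.237%) and 71 below (0.312%). AT5G05250 rose by 2.54 in Col(gl) and changed by -1.35 in Ws, and the difference of 3.89 passed (adjusted p = 0.0043). The 125 fell to 22 and 32 without Ws_0mM replicate 1 or 2, to 71 without Ws_100mM replicate 1, to 23 and 27 without Colgl_0mM replicate 1 or 2 and to 24 and 26 without Colgl_100mM replicate 1 or 2, and rose to 388 without Ws_100mM replicate 2.

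Against SOS1, limma called 0 differences in the 24-array fit (smallest adjusted p = 0.123), with 672 probe sets at an unadjusted p under 0.05. The fit of the 8 arrays of the 2 genotypes called 5, and without SOS1_0mM replicate 2 the 24-array fit called 661, without SOS1_100mM replicate 1 33, and 1 each without SOS1_0mM replicate 1 and Colgl_0mM replicate 2. The replicates of SOS1_0mM had the widest spread of the series, 0.625. XTH19 changed by 0.33 in SOS1 beside 2.80 in Col(gl), SIR by -0.11 beside -0.92, and BHLH101 by -0.14 beside 0.90, and none of these 3 differences passed.

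**Figure D5:**
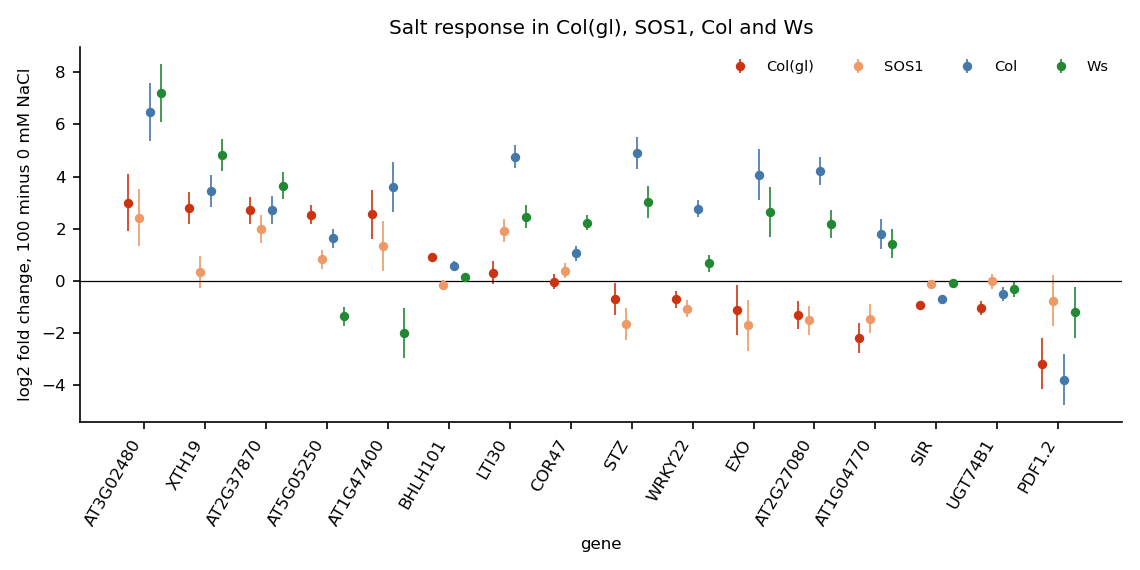
Salt response (log2 fold change, 100 mM minus 0 mM NaCl) of 16 genes in Col(gl), SOS1, Col and Ws; bars are SE of the 24-array fit. The genes were picked from the named ones after their values were seen; STZ, WRKY22 and AT2G27080 lie below 0 in Col(gl) and SOS1 and above 0 in Col and Ws.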

How the data were processed

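Leaf RNA of 24 samples in 12 groups was hybridised to ATH1 arrays. The authors deposited log2 signals, used here unchanged; the submitters' processing notes name GCOS and RMA without versions. RMA normalizes arrays together, which reduces a change shared by most probe sets. Array number, not depth, limits the precision, and detection calls were not used. The arrays hold 22810 probe sets. Without 64 controls, 13513 pair with a single gene in the probe table, 503 with several and 8730 with none. RefSeq (TAIR10.1) gave current symbols for 13436 and the order of chloroplast genes; its coordinates are not printed, since the probes' own build is unnamed.

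Groups came from titles and characteristics. limma 3.58.1 (R 4.3.3) was fitted to all 24 arrays (12 residual and 3.11 prior degrees of freedom) and to the 4 Col(gl) arrays (2 and 5.24), two-sided, adjusted over 22746 probe sets per comparison, at 0.05. Errors are SE of log2 fold changes. The scripts were tested on simulated data.

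The genes and lists were chosen with earlier results of these data known, and 150 of 1178 list entries matched a probe set with 1 gene. Named genes are the 15 largest rises and falls with 1 gene and groups that do not overlap, up to 5 passing members of each list and the 5 smallest p per difference; other list members show the rest of a list. The alternatives were other scalings, a filter on dim probe sets, an intensity trend, array weights, blocks and left-out arrays. The 4-array alternatives and the mitochondrial family were added after seeing the data. Numbers of replicates are shared between salt levels, and deviations of same-numbered Col(gl) arrays correlated at -0.36 over 22746 probe sets.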

Additional observations from a re-analysis of the deposited data

Results flagged for a closer look

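The salt response of Col(gl) differed from that of Col for 740 probe sets in the 24-array limma fit. The 5 genes with the smallest p were AT3G56880 (Col(gl) minus Col -4.04, changes of -0.60 and 3.44), AT1G32920 (-4.92, changes of -0.45 and 4.47), AT1G18740 (-2.98, changes of -0.47 and 2.51), AT1G20070 (4.59, changes of 1.23 and -3.36) and AT3G15310 (1.53, with a change of -1.53 in Col). It differed from that of Ws for 125 probe sets, with the smallest p for AT3G62550 (Col(gl) minus Ws -2.79, changes of 0.07 and 2.85), AT4G19430 (-1.87, changes of -0.31 and 1.56), AT5G05250 (3.89, changes of 2.54 and -1.35), AT4G26950 (1.7, changes of 0.08 and -1.62) and AT1G78450 (2.26, changes of -0.02 and -2.28). All 10 differences kept their call and direction when any 1 of the 8 arrays compared was left out. The filter on the dimmest 40% of probe sets kept 4 of the 5 genes that differed from Col and 3 of the 5 from Ws, all still called. The rest have dim probe sets that were not shown to be above background.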

How the results depend on the processing

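The count of probe sets called for salt in Col(gl) in the 24-array fit, 30, became 2011 with the 4 arrays alone, 1519 with array weights and 55 without the 2 low-dap arrays, and ran from 0 to 5 with 1 array left out; it was 32 with the replicate block. The 740 differences from Col became 4996 in a fit of 8 arrays, 5257 with array weights, 1749 with the replicate block and 229 without the low-dap arrays (95 to 964 with 1 array left out). The 125 from Ws became 1396 in 8 arrays and 1473 with array weights (22 to 388 with 1 array left out), and 138 with the replicate block. The 0 from SOS1 became 5 in 8 arrays, 1 with an intensity trend and 15 without the low-dap arrays (0 to 661 with 1 array left out), and 0 with the replicate block. The 2011 of the 4-array fit became 1275 with the replicate block, 3451 with an intensity trend and 532 to 1800 with 1 array left out. Because same-numbered arrays deviated in opposite ways, the crossed pairing was tried, chosen after seeing the data: it called 32 in the 24 arrays and 4932 in the 4. Blocking by replicate changed the call of 9 of 13 genes named in the 24-array fit and 15 of 78 in the 4-array fit. No named gene changed the sign of its fold change or difference under the alternatives run. The split of the counts did turn in some settings. In the 4-array fit 1176 higher and 835 lower became 732 and 1406 with centred arrays. Against Col, 387 above and 353 below became 330 and 356 with an intensity trend and 858 and 891 with the replicate block. The causes were not tested. Of the 78 genes named in the 4-array fit, 45 were called whichever array was left out.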
